A study of Mus musculus with 15 samples.

Results

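The 9 genes described here belong to the circuit that lets T cells leave and enter lymphoid organs, out of 48795 genes listed per sample. They were chosen by name around the transcription factor Klf2: the factors Klf2, Klf3, Klf6 and Foxo1, the receptors S1pr1, S1pr4, Ccr7 and Gpr183, and Cd69. Their RNA was measured in invariant natural killer T (iNKT) cells, T cells with a semi-invariant receptor that recognise lipids on CD1d. The cells were sorted from WT C57BL/6 mice aged 6 weeks as cells that stained with the CD1d tetramer and TCRβ and lacked B220, CD11b, CD11c and CD8. Thymus, spleen and mesenteric lymph node (mLN) gave 4 samples each and inguinal lymph node (iLN) gave 3. No sample carried a mutation or a treatment, and the labels do not say whether a sample is 1 mouse or a pool, so that p-values measure the spread between these samples. All groups differ by tissue alone as labelled, but LNs were digested with enzymes at 37 °C whereas spleen and thymus were mashed over a mesh, so that tissue and preparation cannot be told apart.

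Foxo1 is active in resting T cells and switches on Klf2, which in turn activates S1pr1. S1pr1 is the receptor for sphingosine 1-phosphate (S1P), the lipid that is high in blood and lymph and draws T cells out of thymus and lymph nodes. Cd69 appears on activated and tissue-resident T cells, where its protein binds S1pr1 and removes it from the surface. Ccr7 brings T cells into lymph nodes, and Gpr183 (EBI2) guides cells within lymphoid organs along gradients of oxysterols.

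Between 1152702 and 8670570 counts were assigned to genes per sample, with a median of 5327351. Thymus replicate 2 was the shallowest. The samples came in 2 batches, with replicates 3 and 4 of each tissue in batch 1 and the others in batch 2, which holds a single iLN sample. The T cell and iNKT defining genes Cd3e, Trac and Zbtb16 were found in every tissue, with mean Zbtb16 levels between 121 CPM (counts scaled to the library total) in thymus and 229 CPM in iLN. B cell markers stood apart in 2 libraries: the sum of 8 genes was 402 CPM in spleen replicate 1 and 167 CPM in mLN replicate 1, and at most 44.6 CPM in the other samples. B cells also express Ccr7, S1pr1, Gpr183 and Cd69, and the part of these cells in the values was not tested beyond leaving those libraries out.

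All 9 are protein-coding genes. For Klf6 and Gpr183 the files list 1 transcript each, of 3 and 2 in the annotation, and for the other 7 they list as many as the annotation. In the GENCODE annotation of GRCm38, the factors are Klf2 (chr8:72319033-72321656, + strand), Klf3 (chr5:64803388-64832901, + strand), Klf6 (chr13:5861482-5870394, + strand) and Foxo1 (chr3:52268336-52353221, + strand). The S1P receptors are S1pr1 (chr3:115710433-115715072, − strand) and S1pr4 (chr10:81497747-81500132, − strand). The others are Ccr7 (chr11:99144196-99155077, − strand), Gpr183 (chr14:121952551-121965195, − strand) and Cd69 (chr6:129267325-129275436, − strand).

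Levels of different genes were compared as TPM, the share of a transcript pool, which accounts for gene length. Klf3, a repressor of the KLF family, had the highest mean TPM of the 9 genes in every tissue, from 89.9 ± 16.0 in thymus to 292 ± 92.8 in spleen (means ± SD here and for all levels that follow, n = 4 in thymus, spleen and mLN and n = 3 in iLN). Klf6 was next in every tissue, with mean TPM between 37.1 in spleen and 53.6 in iLN. Klf2 itself lay among the lowest, with mean TPM of 8.67 in thymus, 7.83 in spleen, 6.05 in mLN and 5.68 in iLN. Ccr7 had the lowest mean TPM in thymus (4.76) and spleen (6.22), but ranked 4 of 9 in mLN with 33.02 TPM.

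The stretches of DNA before the start of 3 of these genes are shown because Klf2 heads the circuit and because Klf3 was highest and Gpr183 lowest in spleen. They are taken from RefSeq promoters on GRCm38.p6, which were matched for 6 of the 9 genes (Klf2, Klf3, Klf6, Foxo1, S1pr4 and Gpr183), and they end before the first annotated base of the transcript. Capitals mark CACCC, the core of the box that KLF proteins bind, or its reverse complement GGGTG.
Klf2, chr8:72318812-72319032, + strand: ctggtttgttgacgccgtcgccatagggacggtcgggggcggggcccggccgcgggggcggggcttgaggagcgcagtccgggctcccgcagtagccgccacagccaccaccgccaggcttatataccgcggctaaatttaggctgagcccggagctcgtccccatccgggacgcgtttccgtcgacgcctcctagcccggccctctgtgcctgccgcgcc
Klf3, chr5:64803271-64803387, + strand: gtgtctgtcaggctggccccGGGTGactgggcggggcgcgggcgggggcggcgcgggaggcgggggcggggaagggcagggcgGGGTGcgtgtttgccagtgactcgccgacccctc
Gpr183, chr14:121965196-121965443, − strand: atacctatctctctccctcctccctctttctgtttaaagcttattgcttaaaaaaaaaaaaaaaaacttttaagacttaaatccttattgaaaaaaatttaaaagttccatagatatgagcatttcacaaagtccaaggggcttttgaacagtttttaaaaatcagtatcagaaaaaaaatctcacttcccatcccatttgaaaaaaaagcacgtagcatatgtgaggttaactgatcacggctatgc
In the full 250 bases before the RefSeq start, on both strands, Klf3 held 5 matches to CACCC, of which 2 lie in the stretch shown. Of 32817 RefSeq promoters of that length, 0.7% held at least 5 matches and 52.0% held at least 1. Klf2 held 1 match, which lies outside the stretch shown, S1pr4 held 1, and Gpr183, Klf6 and Foxo1 held 0. The FOXO motif GTAAACA, on either strand, was in 0 of the 6 and in 3.16% of all promoters. GC content was 71.2% for Klf2 and 78.4% for Klf3, against 32.0% for Gpr183 and a median of 52.4% over all promoters. The shares of promoters with matches were not adjusted for GC content. A match is a run of letters and does not show that a factor binds.

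Across the 4 tissues, 5 of the 9 genes (Klf3, Foxo1, S1pr1, Ccr7 and Gpr183) differed at an adjusted p under 0.01, against 3.38% of all 13600 genes tested. The adjusted p is that of edgeR's quasi-likelihood test with Benjamini-Hochberg adjustment over all tested genes, in a model of tissue and batch. All 9 genes passed the filter on low counts. For pairs of tissues, a gene is called here when its adjusted p is under 0.01 and its fold difference is over 1.5. Klf2, Klf6, S1pr4 and Cd69 were called in none of the 7 comparisons, in edgeR or in DESeq2. At an unadjusted p under 0.05 in edgeR, Klf2 and Cd69 passed in 0 of the 7, and Klf6 and S1pr4 in 3 each. Such p-values were common among all genes. In LNs against spleen and thymus, 10.1% of all tested genes had an edgeR p no higher than that of Klf6 (0.016). The share no higher than that of Klf3 (0.0565) was 18.7%.

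Pair by pair, the calls among the 9 genes were as follows. Thymus against spleen had 2 called (Klf3 lower, Gpr183 higher) against 1.32% of all genes, and mLN against spleen had 2 (Ccr7 and Gpr183, both higher) against 0.654%. iLN against spleen had 3 (S1pr1 and Gpr183 higher, Klf3 lower) against 1.55%. mLN against thymus had 4 (Klf3, Foxo1, S1pr1 and Ccr7, all higher) against 1.60%, and iLN against thymus had 2 (Foxo1 and S1pr1, both higher) against 1.5%. iLN against mLN had 0 called in edgeR, against 0.471%, with 4 at an unadjusted p under 0.05 (Klf3, S1pr1, S1pr4 and Gpr183), and 1 in DESeq2 (S1pr1). The edgeR p-values of those 4 genes were among the lowest 2.4% of all tested genes. LNs against spleen and thymus had 3 (S1pr1, Ccr7 and Gpr183, all higher) against 1.72%. These comparisons share samples, and the genes and the gene lists used below were chosen with results of these data known. The counts of genes called are thus a description.

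**Figure D1:**
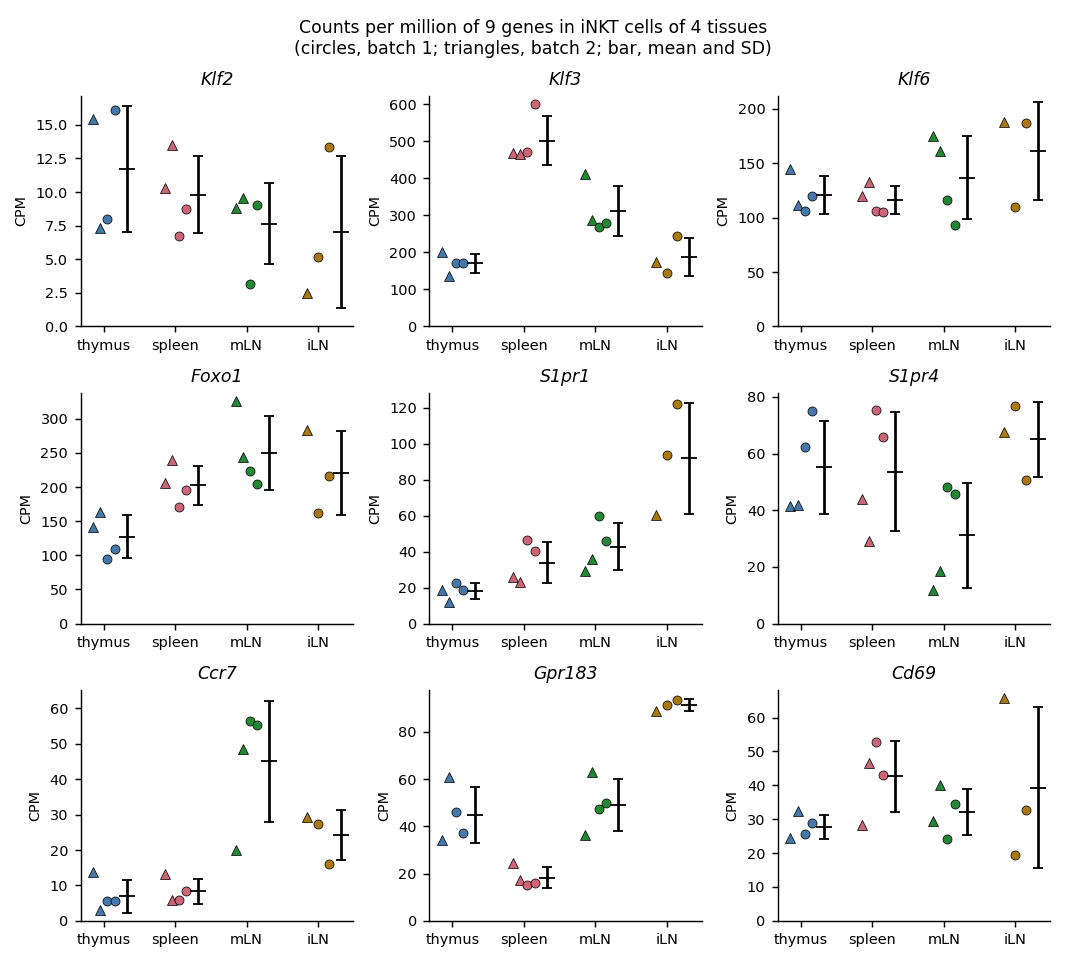
CPM of the 9 genes (vertical axis, starting at 0) in each sample by tissue, with the mean and SD at the right of each group and the batches as circles and triangles. Klf3 was highest in the 4 spleen samples and Gpr183 lowest there, S1pr1 was highest in iLN, Ccr7 was higher in all 7 LN samples than in the 8 others, and Klf2 overlapped between all tissues.

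**Figure D2:**
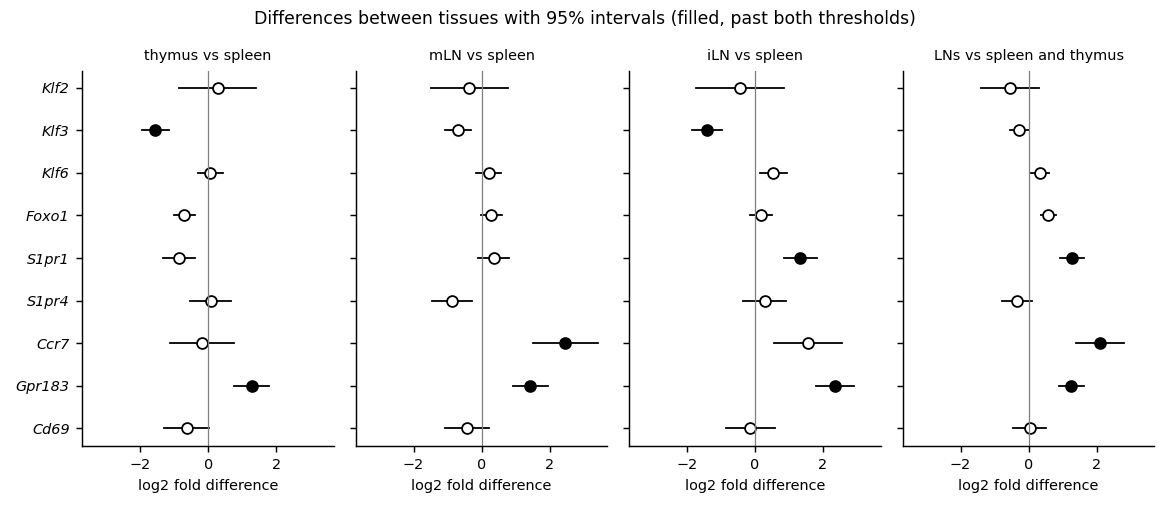
Log2 fold difference (horizontal axis) of each of the 9 genes in 4 comparisons, with 95% intervals from edgeR as lines and filled points for those past both thresholds. Gpr183 was higher than in spleen in all 3 other tissues, Klf3 was lower in thymus and iLN, and the Klf2 intervals cover 0 in every panel.

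Klf2, the factor named for this circuit, ranked 7 to 9 of the 9 genes by mean TPM in every tissue. Among all genes above 0 TPM, its mean lay at percentile 62.2 in thymus, 61.8 in spleen, 54.3 in mLN and 50.2 in iLN. The counts behind Klf2 were between 10 and 125 per sample. Its levels in replicates 1 to 4 were 15.4, 7.35, 7.99 and 16.1 CPM in thymus and 10.3, 13.5, 6.73 and 8.74 CPM in spleen. In mLN they were 8.82, 9.58, 3.12 and 9.05 CPM, and iLN replicates 2, 3 and 4 had 2.51, 5.15 and 13.3 CPM. The 4 tissues overlapped, and the range within iLN covered most of the range of all samples. The largest difference between pairs was that of iLN against thymus, −0.73 ± 0.61 on the log2 scale (SE, 3 against 4 samples, 95% interval −2.01 to 0.54, adjusted p = 0.590 in edgeR). LNs against spleen and thymus gave −0.55 ± 0.41 (SE, 95% interval −1.40 to 0.30, adjusted p = 0.544 in edgeR). That interval holds both no difference and falls of up to 1.40. Within batches, iLN minus spleen was 0.11 in batch 1 and −2.03 in batch 2, where it rests on iLN replicate 2 alone.

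Klf3 binds the same CACCC boxes as Klf2 and represses transcription. Its levels in spleen replicates 1 to 4 were 470, 465, 471 and 601 CPM. In mLN they were 413, 288, 268 and 279 CPM. Every spleen sample was above every mLN sample, and both stood apart from the thymus samples, which had 202, 137, 171 and 171 CPM. Of all tested genes, 6.2% separated mLN from spleen in 1 direction or the other. The shares were 8.6% for thymus and spleen and 8.1% for mLN and thymus. The iLN replicates 2, 3 and 4 had 173, 145 and 244 CPM and overlapped thymus. Spleen thus came first, followed by mLN, with iLN and thymus last. Thymus minus spleen was −1.55 ± 0.19 on the log2 scale (SE, adjusted p = 4.16e-05), and iLN minus spleen was −1.42 ± 0.21 (SE, adjusted p = 4.24e-04, both in edgeR). These calls held without any 1 sample. With batch 1 only, iLN minus spleen was −1.48 in edgeR (adjusted p = 0.0117) and was not called. The step from spleen to mLN was −0.69 ± 0.18 (adjusted p = 0.0761) and was not called. The rise from thymus to mLN was called at 0.87 ± 0.18 (adjusted p = 0.00989), but the call was lost without any of 13 of the 15 samples, with adjusted p between 0.0121 and 0.0558, and remained only without iLN replicate 3 or 4. Between iLN and thymus the difference was 0.14 ± 0.20 (95% interval −0.28 to 0.56).

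Klf3 has 9 transcripts in the annotation, and the length that the authors' software gave the gene followed the mix of transcripts in a sample. This effective length had a median of 1807 bases in mLN and 2338 bases in thymus, and the range over all samples was 1485 to 2688 bases. On the TPM scale, LNs against spleen and thymus gave 0.01 for Klf3 (log2, limma) in place of −0.27 ± 0.13 on counts, neither of which was called. In the same limma fit the call of iLN against spleen was lost (−1.23, adjusted p = 0.0511). That of mLN against thymus was lost as well (1.26, adjusted p = 0.0286), and that of thymus against spleen was kept. Klf3 shares 404 of its 11243 exon bases with the antisense gene Gm20033, and Foxo1 shares 674 of 8665 with Gm20402. Whether strand was used in counting is not given in the sources used here, so that reads of such partners cannot be told apart.

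Klf6, a member of the family that many cell types express, was called in no comparison. Its mean was 121 ± 17.3 CPM in thymus, 116 ± 12.9 in spleen, 137 ± 38.2 in mLN and 162 ± 45.1 in iLN. Samples of the 4 tissues overlapped. The difference of iLN from spleen was 0.54 ± 0.19 on the log2 scale (95% interval 0.14 to 0.93, adjusted p = 0.136).

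Of the 17 genes of the KLF family, 11 had enough counts to be tested. Klf3 was called lower in thymus and in iLN than in spleen and higher in mLN than in thymus. Klf11, a repressor of the same family, was called higher in LNs than in spleen and thymus, by 3.95 ± 0.77 on the log2 scale (SE, adjusted p = 0.00455). It was close to 0 in thymus and spleen, between 0 and 1.33 CPM, and had 1.56 to 10.6 CPM in mLN and 2.98 to 25.5 CPM in iLN. No other member was called in that comparison, where 1.72% of all genes were called. The median of the 11 was 0.36 on the log2 scale, against 0.02 for all genes. Klf13, the most abundant member after Klf3 by counts in spleen, had means of 169 CPM in thymus, 178 in spleen, 216 in mLN and 253 in iLN and was not called. Klf4, a factor of quiescence in T cells, had at most 10.98 CPM in any sample.

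Foxo1 had its lowest mean in thymus. Thymus replicates 1 to 4 had 141, 164, 93.9 and 109 CPM, all below the spleen samples, which had 206, 240, 170 and 196 CPM. A separation of thymus from spleen in either direction was found for 8.6% of all tested genes. The mLN samples had 327, 244, 223 and 204 CPM, and iLN replicates 2, 3 and 4 had 284, 162 and 216 CPM. Spleen, mLN and iLN overlapped, and iLN also overlapped thymus, as iLN replicate 3 lay just below thymus replicate 2. Foxo1 was called higher than in thymus in mLN, by 0.99 ± 0.15 on the log2 scale (SE, adjusted p = 4.62e-04), and in iLN, by 0.88 ± 0.16 (SE, adjusted p = 0.00314). The first held without any 1 sample. The second was lost without any 1 of thymus replicates 1, 3 and 4 and iLN replicates 2 and 4, with adjusted p between 0.0127 and 0.0286. The difference of thymus from spleen, −0.70 ± 0.15, just missed the threshold (adjusted p = 0.0112), and was called in DESeq2 (−0.69, adjusted p = 7.82e-04). In LNs against spleen and thymus the adjusted p was 0.00318, but the fold of 1.498 fell just short of 1.5.

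Few kinases and partners of Foxo1 were called. Of 14 tested genes of that group, 1 was called between thymus and spleen, against 1.32% of all genes. It was Sgk1, a kinase that phosphorylates FOXO proteins and keeps them out of the nucleus. Sgk1 had 32.2 ± 1.67 CPM in thymus and 5.58 ± 2.67 in spleen, a difference of 2.58 ± 0.48 on the log2 scale (SE, adjusted p = 0.00380). It was also called lower in mLN than in thymus (−3.32 ± 0.49, adjusted p = 4.17e-04). Foxo3 had means of 106 CPM in thymus and 170 in spleen and was not called. In LNs against spleen and thymus 0 of the 14 were called in edgeR, and the median log2 difference was 0.05. An unadjusted p under 0.05 was reached by 8 of the 14. Over all tested genes in that comparison, 18.7% had an edgeR p of 0.0565 or less.

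S1pr1, the egress receptor, was lowest in thymus and highest in iLN. Thymus replicates 1 to 4 had 18.8, 11.8, 22.3 and 18.8 CPM. Spleen had 26.0, 22.8, 46.3 and 40.5 CPM and mLN had 29.3, 36.1, 59.9 and 45.9 CPM, ranges that overlap each other and lie above all thymus samples. iLN replicates 2, 3 and 4 had 60.1, 93.7 and 122 CPM, above every other sample, though iLN replicate 2 lay just above mLN replicate 3. Separation in either direction was found for 8.6% of all tested genes in thymus against spleen and 8.1% in mLN against thymus. For iLN it was 12.9% against spleen, 13.4% against thymus and 8.5% against mLN. Within spleen, mLN and iLN, the batch 1 samples were above those of batch 2. iLN was higher than thymus by 2.19 ± 0.25 on the log2 scale (SE, adjusted p = 3.33e-05), a 4.56-fold difference, and higher than spleen by 1.33 ± 0.24 (SE, adjusted p = 0.00252). mLN was higher than thymus by 1.21 ± 0.23 (SE, adjusted p = 0.00420). The neighbours in this order were not told apart: thymus from spleen gave −0.85 ± 0.23 (adjusted p = 0.0535), mLN from spleen 0.35 ± 0.22 (adjusted p = 0.579) and iLN from mLN 0.98 ± 0.24 (adjusted p = 0.0456), all in edgeR; the last was called in DESeq2 (1.0, adjusted p = 0.00268).

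The difference between iLN and thymus held without any 1 sample. The call of iLN against spleen was lost without spleen replicate 2 or 4 or iLN replicate 4, with adjusted p between 0.0104 and 0.0192, and that of mLN against thymus without thymus replicates 2, 3 or 4 or mLN replicates 2 or 3, with adjusted p between 0.0141 and 0.0284. Within batches, iLN minus spleen was 1.29 in both. Leaving out spleen replicate 1, the library with B cell markers, kept these 3 calls.

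S1pr4, a second S1P receptor of lymphocytes, was most variable in mLN. Its values there were 11.9 and 18.7 CPM in replicates 1 and 2 (batch 2) and 48.1 and 45.9 CPM in replicates 3 and 4 (batch 1). Thymus replicates had 41.6, 41.9, 62.2 and 74.9 CPM, spleen replicates had 44.1, 29, 75.5 and 65.9 CPM, and iLN replicates 2, 3 and 4 had 67.6, 76.7 and 50.8 CPM. In all of thymus, spleen and mLN the batch 1 samples were the higher ones. The largest difference was that of iLN over mLN, 1.15 ± 0.30 on the log2 scale (SE, 95% interval 0.51 to 1.79, adjusted p = 0.0663), with 0.41 in batch 1 and 2.14 in batch 2. iLN minus spleen was −0.17 in batch 1 and 0.91 in batch 2.

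Of the 16 genes of the S1P pathway, 11 were tested, and S1pr1 was the only one called in LNs against spleen and thymus (1.27 ± 0.17 on the log2 scale, adjusted p = 1.25e-04). In that comparison 1.72% of all genes were called. The median of the 11 was 0.23, against 0.02 for all genes. Gnai2, the G protein subunit through which S1pr1 signals, had means of 374, 270, 335 and 392 CPM in thymus, spleen, mLN and iLN. Grk2, the kinase that takes S1pr1 off the surface in blood, had 91.9, 104, 84.8 and 71.5 CPM in the same order. Neither was called in these comparisons with spleen.

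Cd69, the antagonist of S1pr1 at the protein level, did not differ detectably. Thymus replicates 1 to 4 had 24.4, 32.3, 25.6 and 28.8 CPM and spleen replicates had 28.2, 46.7, 52.8 and 42.9 CPM. The mLN samples had 29.6, 40.2, 24.1 and 34.5 CPM, and iLN replicates 2, 3 and 4 had 65.7, 19.5 and 32.7 CPM. iLN held both the highest and the lowest of all samples. Thymus against spleen gave −0.64 ± 0.32 (95% interval −1.30 to 0.03, adjusted p = 0.506) and LNs against spleen and thymus gave 0.03 ± 0.23 (95% interval −0.45 to 0.52, adjusted p = 0.967). Within batches, LNs minus spleen and thymus was −0.41 in batch 1 and 0.57 in batch 2. Cd69 has 5 transcripts in the annotation, with effective lengths between 1520 and 3187 bases over the samples.

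Other genes linked to residency did differ between the tissues, in both directions. Of 14 tested, 4 were called higher and 2 lower in thymus than in spleen, against 1.32% of all genes called. Among them was Itgae (CD103), which binds E-cadherin on epithelium, with 262 ± 38.8 CPM in thymus, 4.44 ± 2.76 in spleen, 13.98 ± 12.0 in mLN and 200 ± 32.8 in iLN. In LNs against spleen and thymus, 1 was called higher (Nr4a1) and 3 lower (Itga1, Zfp683 and Xcl1), against 1.72% of all genes called. Cd69 was in neither set.

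Ccr7 was the gene of the 9 that separated both lymph nodes from the other tissues. The mLN samples had 19.97, 48.6, 56.6 and 55.3 CPM, and iLN replicates 2, 3 and 4 had 29.2, 27.4 and 16.1 CPM. Thymus samples had 13.7, 2.94, 5.51 and 5.69 CPM and spleen samples 13.3, 5.86, 5.73 and 8.34 CPM. Each of the 7 LN samples was above each of the 8 others, a complete separation in 1 direction or the other that 0.7% of all tested genes showed. Counts were low outside the LNs, from 4 in thymus replicate 2 to 135 in spleen replicate 1, the sample with B cell markers. LNs exceeded spleen and thymus by 2.10 ± 0.33 on the log2 scale (SE, adjusted p = 7.65e-04), a 4.29-fold difference that held without any 1 sample.

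By tissue, mLN exceeded thymus by 2.64 ± 0.47 (SE, adjusted p = 0.00237) and spleen by 2.46 ± 0.46 (SE, adjusted p = 0.00749). The call against spleen was lost without any 1 of 9 samples (thymus replicates 3 and 4, every spleen replicate, and mLN replicates 2, 3 and 4), with adjusted p between 0.0123 and 0.0363, and in the fit with the replicate number as a block. That against thymus was lost without thymus replicate 3 or 4 or mLN replicate 3, with adjusted p between 0.0101 and 0.0168. iLN minus spleen was 1.56 ± 0.47 (adjusted p = 0.0774) and iLN minus thymus 1.74 ± 0.48 (adjusted p = 0.0536), which were not called. The difference of iLN from mLN was −0.90 ± 0.47 (95% interval −1.89 to 0.09, adjusted p = 0.420).

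Ccr7 was not alone in this direction. Of 11 tested genes of lymph node entry and adhesion, 2 (Ccr7 and Itga4) were called higher in LNs than in spleen and thymus and 0 lower. Over all genes 1.72% were called there. Itga4, the α4 chain of gut-homing integrins, had 458 ± 139 CPM in mLN against 158 ± 44.8 in iLN and 118 ± 56.9 in spleen, and was called higher in mLN than in spleen (2.03 ± 0.21, adjusted p = 1.02e-04). Cxcr4, which retains cells in marrow and germinal centres, differed between LNs and the other tissues by 1.27 ± 0.34 on the log2 scale (adjusted p = 0.0365) and was not called.

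Of 9 known targets of Foxo1, 3 were called higher in LNs than in spleen and thymus (Ccr7, S1pr1 and Il7r) and 0 lower, against 1.72% of all genes called. Ccr7, S1pr1 and Klf2 are themselves among the genes described above, so that the count and the median repeat their results in part. Il7r was the only other target called. The median of the 9 was 0.45 on the log2 scale, against 0.02 for all genes. Il7r, the receptor for the survival cytokine IL-7, had 734 ± 173 CPM in thymus, 490 ± 52.2 in spleen, 603 ± 131 in mLN and 1285 ± 325 in iLN. It was called higher in iLN than in spleen, by 1.47 ± 0.17 on the log2 scale (SE, adjusted p = 3.06e-05), and than in thymus. mLN differed from spleen by 0.29 ± 0.15 (adjusted p = 0.486) and from thymus by −0.28 ± 0.15 (adjusted p = 0.464), neither of which was called. Klf2, Cdkn1b, Bach2 and the other targets were not called.

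Gpr183 had a tissue order of its own, with spleen lowest. Spleen replicates 1 to 4 had 24.7, 17.1, 15.2 and 15.9 CPM, below every other sample. Thymus had 34.4, 61.0, 46 and 37.4 CPM and mLN had 36.3, 62.8, 47.4 and 49.9 CPM, nearly the same range. iLN replicates 2, 3 and 4 had 89.0, 91.6 and 93.7 CPM, above every other sample, with a coefficient of variation of 2.6% on this scale. As TPM the same samples had 45.2, 32.9 and 50.4, and thymus replicate 2 had 35.55, above iLN replicate 3. On the CPM scale, separation from spleen was found for 8.6% of all tested genes in thymus, 6.2% in mLN and 12.9% in iLN. For iLN it was 13.4% against thymus and 8.5% against mLN. Against spleen, iLN was higher by 2.36 ± 0.26 on the log2 scale (SE, adjusted p = 2.54e-05), a 5.12-fold difference, mLN by 1.43 ± 0.24 (SE, adjusted p = 0.00464) and thymus by 1.28 ± 0.25 (SE, adjusted p = 0.00523). The first held without any 1 sample. The call of mLN was lost without any of spleen replicates 2, 3 and 4 or mLN replicates 2, 3 and 4 (adjusted p between 0.0165 and 0.0258), and that of thymus without any of spleen replicates 2, 3 and 4 or thymus replicates 2, 3 and 4 (adjusted p between 0.0124 and 0.0304). The call of thymus was also lost in the fit that blocked on replicate number (1.25, adjusted p = 0.0106).

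Gpr183 in mLN and thymus differed by less than the spread between samples (0.16 ± 0.24, 95% interval −0.35 to 0.66), and iLN minus thymus was 1.08 ± 0.26 (adjusted p = 0.0239) and iLN minus mLN 0.92 ± 0.26 (adjusted p = 0.0782), short of the threshold. The difference of LNs from spleen and thymus, 1.26 ± 0.18 (SE, adjusted p = 2.48e-04), was called although thymus and mLN overlapped. Spleen replicate 1, with B cell markers, had the highest Gpr183 of the spleen samples, and without it the call for each of the 3 tissues against spleen was kept. Gpr183 lies within the gene Ubac2 on the other strand and shares 0 exon bases with it. The enzymes that make and clear its oxysterol ligands (Ch25h, Cyp7b1, Cyp27a1 and Hsd3b7) did not reach the count filter, with at most 17 counts each over all 15 samples together.

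**Figure D3:**
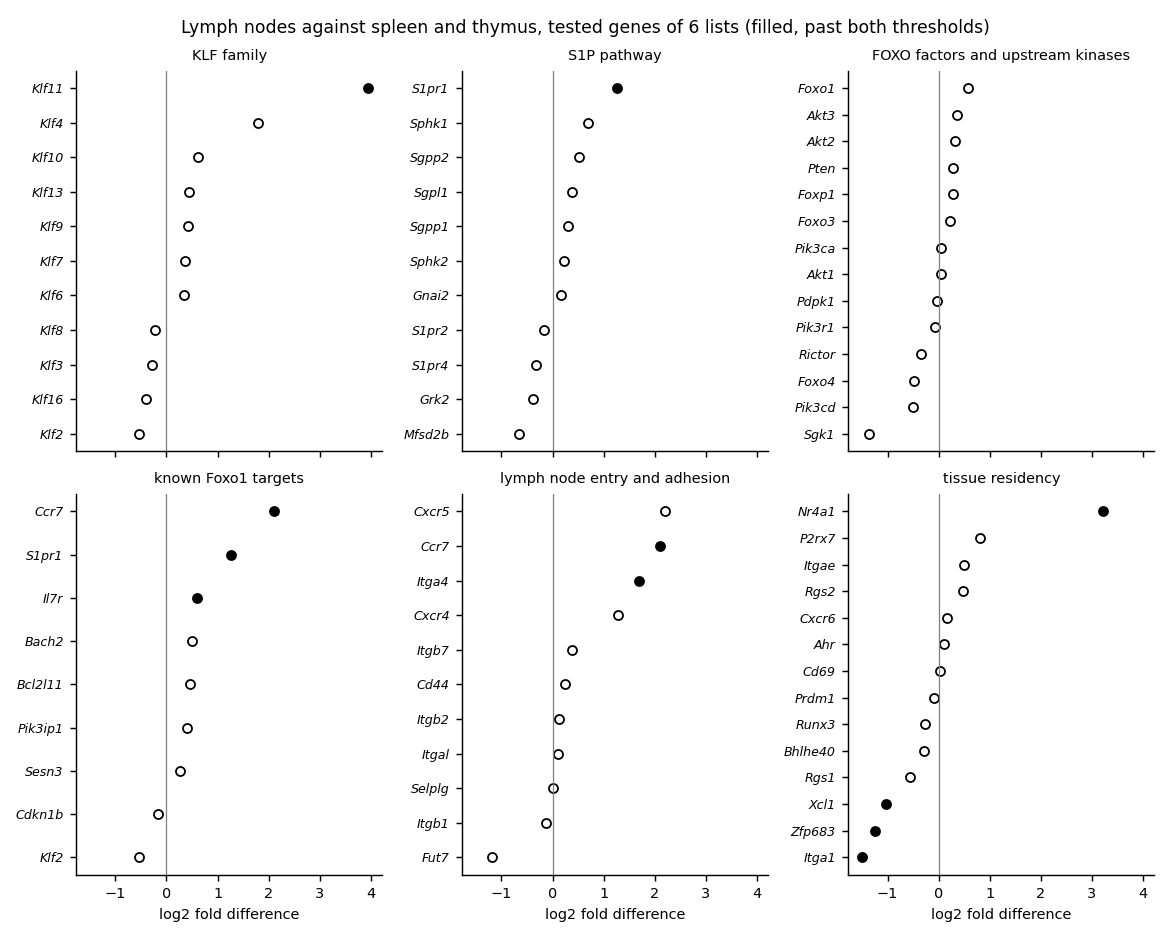
Log2 fold difference (horizontal axis) of LNs from spleen and thymus for each tested gene of 6 lists, with filled points for genes past both thresholds. The called genes on the higher side are Klf11, S1pr1, Ccr7, Il7r, Itga4 and Nr4a1, while the factors and kinases of the Foxo1 list have 0 filled points.

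Markers of iNKT subsets moved with several of these genes. The summed level of 8 NKT17 markers, genes of the IL-17-producing subset such as Il1r1, Ccr6 and Il23r, was 384 to 731 CPM in iLN, 55.6 to 93.3 CPM in mLN, 21.9 to 37.6 CPM in spleen and 16.5 to 35.7 CPM in thymus. Of the 7 tested, 6 were called higher in iLN than in spleen, against 1.55% of all genes called in either direction. Among them was Il1r1, a receptor for IL-1 (5.04 ± 0.53 on the log2 scale, adjusted p = 1.37e-05), which had 98.6 CPM in iLN and 3.31 CPM in spleen on average. S1pr1 and Gpr183 were highest in those same iLN samples. NKT1 markers went the other way, with 6 of 9 called lower in LNs than in spleen and thymus and 0 higher, against 1.72% of all genes called. The 6 NKT2 markers summed to 288 to 439 CPM in mLN, 230 to 375 in iLN, 180 to 242 in spleen and 219 to 283 in thymus. Of these, 1 (Izumo1r) was called higher in LNs than in spleen and thymus and 0 lower. The samples hold all subsets mixed, so that a change in subset shares and a change per cell cannot be told apart.

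Ccr7 was itself 1 of 7 markers of iNKT precursors, and the other 6 summed to 400 to 593 CPM in mLN, where Ccr7 was highest, against 165 to 289 CPM in iLN, 224 to 286 CPM in spleen and 227 to 325 CPM in thymus. Lef1, with a mean of 239.5 CPM, and Slamf6, with 218 CPM, made up most of the mLN sum. Itm2a was called lower in mLN than in thymus (−2.92 ± 0.49 on the log2 scale, adjusted p = 0.00130). The 5 markers of naive conventional T cells, which include Lef1 again and are led by Satb1 (mean of 1033 CPM in mLN, not called against spleen), summed to 1169 to 1482 CPM in mLN and 925 to 1069 CPM in spleen. Slamf6 was called higher in mLN than in spleen (1.45 ± 0.23, adjusted p = 0.00331), as was Igfbp4 (2.33 ± 0.33, adjusted p = 0.00124). Sort gates were set for tetramer-positive cells, but RNA of other cells was also found. Beside the B cell markers given above, 5 red cell markers summed to 24 to 117 CPM in spleen. The part of conventional T cells or precursors in the Ccr7 level was not tested.

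Immediate early genes, which respond within minutes to activation or handling, were also higher in LNs. Of 16 tested, 6 were called higher than in spleen and thymus and 0 lower, against 1.72% of all genes called. The sum of the list was 622 to 916 CPM in iLN and 618 to 779 CPM in mLN, against 285 to 530 CPM in spleen and 359 to 571 CPM in thymus. Fos ranged from 4.62 to 23.3 CPM in the LN samples and reached at most 0.89 CPM in the others. Nr4a1 had 28.9 ± 12.3 CPM in mLN and 3.698 ± 3.22 in spleen. Cd69 and Klf6, which activation also induces, and Klf2, which it lowers, were not called in the same comparison. On the log2 scale Klf6 was higher in LNs by 0.341 ± 0.129 (SE, unadjusted p = 0.016, adjusted p = 0.159 in edgeR). Klf2 differed by −0.546 ± 0.405 and Cd69 by 0.034 ± 0.231 (SE). A difference that was not called may be real, so these results do not show whether activation or handling played a part. The part of tissue preparation in the LN values was not tested.

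**Figure D4:**
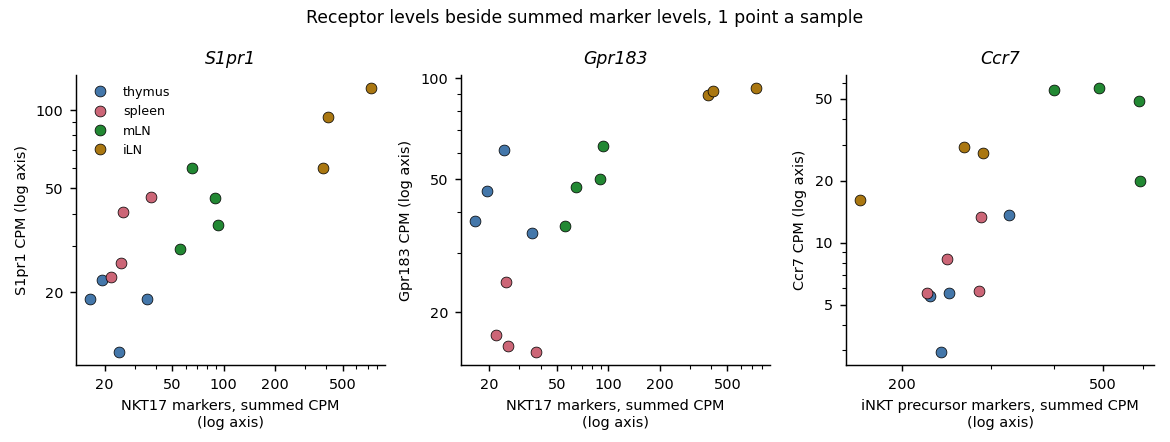
CPM of S1pr1, Gpr183 and Ccr7 (vertical log axes) against the summed CPM of NKT17 markers or of iNKT precursor markers without Ccr7 (horizontal log axes), 1 point a sample coloured by tissue. iLN samples lie at 384 to 731 CPM of NKT17 markers with the highest S1pr1 and Gpr183, and mLN samples lie at the highest precursor sums with 19.97 to 56.6 CPM of Ccr7.

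As a description over the 15 samples, with batch means removed on the log2(CPM + 0.5) scale, S1pr1 went with Foxo1 (Pearson's r = 0.74), Ccr7 (0.66) and Klf6 (0.63). Klf2 did not go with S1pr1 (−0.43) or Ccr7 (−0.40), and Klf3 went against Gpr183 (−0.78). The points share tissue, and Klf2 rests on few counts. Of the 6014 genes that averaged 20 CPM or more, those most like S1pr1 were Sh3kbp1 (0.972), Gm2a (0.947), Ly6e (0.938), Tmem176a (0.932) and Selenop (0.920). Tmem176a, an NKT17 marker, had means of 4.74, 9.28, 15.3 and 93.1 CPM in thymus, spleen, mLN and iLN. Among those most like Klf2 were BC003965 (0.834), Cpsf7 (0.825), Mob3c (0.799) and Ebna1bp2 (0.796), among 6015 genes.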

How the data were processed

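RNA of sorted iNKT cells from 15 samples was sequenced as Nugen Ovation libraries. Per the submitters' processing notes, cutadapt 1.7.1, Bowtie2 2.2.9 and RSEM 1.2.31 were used on GRCm38. The expected count that the authors deposited is RSEM's estimate of fragments per gene, not normalized. The TPM values that the authors deposited divide it by effective length and scale each sample to the same sum, and the deposited FPKM values were not used. iLN replicate 1 was not analysed here. The 9 genes and the gene lists were chosen with earlier results of these data known.

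Expected counts were rounded to whole numbers, filtered with filterByExpr (13600 genes kept) and normalized by TMM (factors 0.755 to 1.18). CPM are TMM-normalized. edgeR 4.0.16 (limma 3.58.1, R 4.3.3) was fitted as a robust quasi-likelihood model with tissue and batch, over all samples. SE was taken from the fold change and the F statistic. Called means a Benjamini-Hochberg adjusted p under 0.01 and a fold over 1.5, and for 4 tissues the adjusted p alone. On simulated data for iLN against spleen, calls were made for 38.2% of 102 genes with a set log2 difference of 2, for 7.5% of 93 with 1, and for 0 of 13146 with none, so a difference that was not called may be real. Named were the 9 genes, list members that were called or define a list, and genes among the 5 most like Klf2 and S1pr1. Some genes are not reported here and were left out of the gene lists, their counts, medians and sums.

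Replicates of a tissue differed by far more than counting error (chi-squared per degree of freedom 7.21 to 213). Same-numbered samples had a mean correlation of 0.126 over 21 pairs of deviations from tissue means, against 0.112 for other numbers of the same batch. The lowest of the same-numbered pairs was 0.00074. With the means of each tissue and batch removed, the mean was 0.0234 for same numbers (lowest 0.00258). For other numbers of the same batch it was −0.0234. That value adds nothing to the first, since the deviations of a pair of samples from their own mean mirror each other. The numbers may thus pair samples weakly. The main model does not use them, and a fit with the number as a block is among the alternatives. Alternatives were DESeq2 1.42.0, RLE, other count filters, no batch term, a replicate block, only the groups compared, thinning, limma on log2(TPM + 1), removal of the 20 highest genes, each batch alone, and leaving out each sample. Promoters are RefSeq's. Figures were drawn with matplotlib under Python.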

Additional observations from a re-analysis of the deposited data

Results flagged for a closer look

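Among the 27 sets of 4 samples (9 genes in thymus, spleen and mLN), 3 had a sample whose gap to its nearest neighbour took up most of the set's range, where chance flags about 1 in 20. Klf2 in mLN replicate 3 was at 3.12 CPM, with the other mLN samples at 8.82 to 9.58 CPM. Klf3 in spleen replicate 4 was at 601 CPM, with the others at 465 to 471 CPM. Klf3 in mLN replicate 1 was at 413 CPM, with the others at 268 to 288 CPM, and that sample also held more B cell marker counts than the other mLN samples.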

How the results depend on the processing

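The numbers of the 9 genes called were 2 (thymus against spleen), 2 (mLN against spleen), 3 (iLN against spleen), 4 (mLN against thymus), 2 (iLN against thymus), 0 (iLN against mLN), 3 (LNs against spleen and thymus) and 5 (4 tissues). In that order of pairs, they became 1, 0, 2, 1 and 1 for the first 5 without the batch term, 1, 0, 1, 1 and 1 with limma on TPM, and 1, 0, 1, 1 and 1 with batch 1 only. With batch 2 only, every count, LNs and 4 tissues included, was 0; that batch has 1 iLN sample and 7 samples in all. Calls over all genes fell as well in these fits. For the first 5 pairs they were 179, 89, 211, 217 and 204 in the main fit. Without the batch term they were 123, 29, 129, 156 and 123. With limma on TPM they were 100, 15, 87, 107 and 111, and with batch 1 only 45, 0, 81, 55 and 114. With only the groups compared, the 9 genes had 3 calls for thymus against spleen, where Foxo1 was added. They had 2 for iLN against spleen, where S1pr1 lost its call. They had 0 for mLN against spleen, 2 for mLN against thymus and 1 for iLN against thymus. Over all genes that fit called 313, 17, 86, 179 and 144 for the first 5 pairs. mLN against spleen gave 1 with at least 10 counts in every sample and 0 in thinned libraries. DESeq2 gave 4 for iLN against thymus and 1 for iLN against mLN. With the replicate number as a block, thymus against spleen and mLN against spleen gave 1 each, where Gpr183 and Ccr7 lost their calls, and over all genes 174, 70 and 175 were called for thymus, mLN and iLN against spleen. Leaving out each sample gave 1 to 3, 0 to 2, 2 to 3, 1 to 4, 1 to 2, 0 to 0, 3 to 4 and 4 to 5, in the order of the first sentence. Over all genes, DESeq2 called 387, 248 and 556 for thymus, mLN and iLN against spleen, where edgeR called 179, 89 and 211. All 16 called differences kept their direction under every alternative that gave a value; Ccr7 could not be tested with at least 10 counts in every sample. Directions turned only among differences that were not called, and the cause was not tested. With batch 1 only these were S1pr4 in thymus against spleen (−0.05), iLN against spleen (−0.17) and iLN against thymus (−0.12), Klf6 in mLN against spleen (−0.03) and thymus (−0.11), Klf2 in iLN against spleen (0.25) and mLN (0.61), and Cd69 in iLN against thymus (−0.06), iLN against mLN (−0.16) and LNs against spleen and thymus (−0.39). With batch 2 only they were Klf2 in thymus against spleen (−0.04) and Cd69 in iLN against spleen (0.79). Cd69 in LNs against spleen and thymus was −0.06 with the replicate block, −0.04 thinned and −0.11 with limma on TPM, and Klf3 there was 0.01 with limma on TPM. Leaving out each sample, the ranges that crossed or reached 0 were −0.80 to 0.15 (Ccr7), 0.00 to 0.15 (Klf6) and −0.04 to 0.17 (S1pr4) in thymus against spleen, −0.71 to 0.17 (Cd69), −1.34 to 0.14 (Klf2) and −0.23 to 0.53 (S1pr4) in iLN against spleen, −0.31 to 0.46 (S1pr4), −0.09 to 0.80 (Cd69) and −0.12 to 0.28 (Klf3) in iLN against thymus, −0.97 to 0.50 (Klf2), −0.31 to 0.59 (Cd69) and −0.20 to 0.00 (Foxo1) in iLN against mLN, and −0.25 to 0.19 (Cd69) in LNs against spleen and thymus. In libraries thinned to the smallest, Gpr183 lost its calls in thymus and in mLN against spleen. Ccr7 in mLN against spleen and S1pr1 in mLN against thymus lost theirs as well. Over all genes the thinned fit called 205, 85, 234, 210 and 217 for the first 5 pairs, against 179, 89, 211, 217 and 204 in the main fit. Whether the depth of the full libraries limits the calls was not tested.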
